A study of Mus musculus with 32 samples.

Results

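The chromatin of 10 immediate early genes was examined in B3, a pre-B cell line of the mouse. The genes were Fos, Fosb, Jun, Junb and Jund of the AP-1 family, Egr1, Egr2 and Egr3 of the EGR family, and Ier2 and Atf3, chosen by name and not by any measured value. All ChIP-seq peaks within 50 kb of an annotated transcription start of these genes (mm10) were collected, which gave 1097 of the 338060 peaks in the 24 peak lists. Peaks that overlapped between libraries of one target were merged into regions. The 10 genes had 81 of 39309 H3K27ac regions, 95 of 23856 Ikaros regions and 54 of 15358 CHD4 regions. Every library came from B3 cells that carry a retroviral construct of HA-tagged Ikaros (IKZF1) joined to ERt2, a receptor domain whose fusions enter the nucleus once 4-hydroxytamoxifen (4-OHT) binds. Cells were untreated (0 h) or had 500 nM 4-OHT for 30 min, 1 h or 2 h, and HA-Ikaros, CHD4 and H3K27ac were each mapped in 2 replicates per time. Whether the transduced cells were 1 clone, and whether the replicates were separate cultures, is not given in the sources used here, so p-values measure the spread between these libraries. No library had 4-OHT without the fusion, so nuclear entry of Ikaros, 4-OHT itself and the handling of the cells cannot be told apart.

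Immediate early genes are switched on within minutes of a stimulus, without new protein synthesis, by factors already bound at their promoters, such as SRF with its ETS-family partners and CREB. Their products are mostly transcription factors: FOS and JUN proteins pair into AP-1, EGR proteins bind GC-rich sites through zinc fingers, and ATF3 is a stress-induced relative of AP-1. H3K27ac, acetylation of lysine 27 on histone H3, marks active promoters and enhancers, Ikaros is a zinc finger protein of lymphoid cells, and CHD4 is the remodelling ATPase of the NuRD deacetylase complex. Because these genes can also respond to mere handling, the question was whether their H3K27ac moved after 4-OHT, and whether it moved at regions with or without an Ikaros peak.

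The peak lists held 21468 to 33664 peaks for H3K27ac, 5373 to 14874 for Ikaros and 2488 to 9593 for CHD4. The mean coverage was 3.75 to 4.34 fragments per base in the H3K27ac libraries and 1.98 to 3.59 in the Ikaros libraries, and is unknown for CHD4. H3K27ac within 1 kb of a start was found in all 8 libraries at 10 of 11 B lineage marker genes (Rag1 in 7 libraries), 1 of 6 T cell markers (Cd3d), 2 of 5 erythroid markers (Hbb-bs and Klf1) and 0 of 5 myeloid markers, of which Lyz2 was marked in 1 library.

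**Figure D1:**
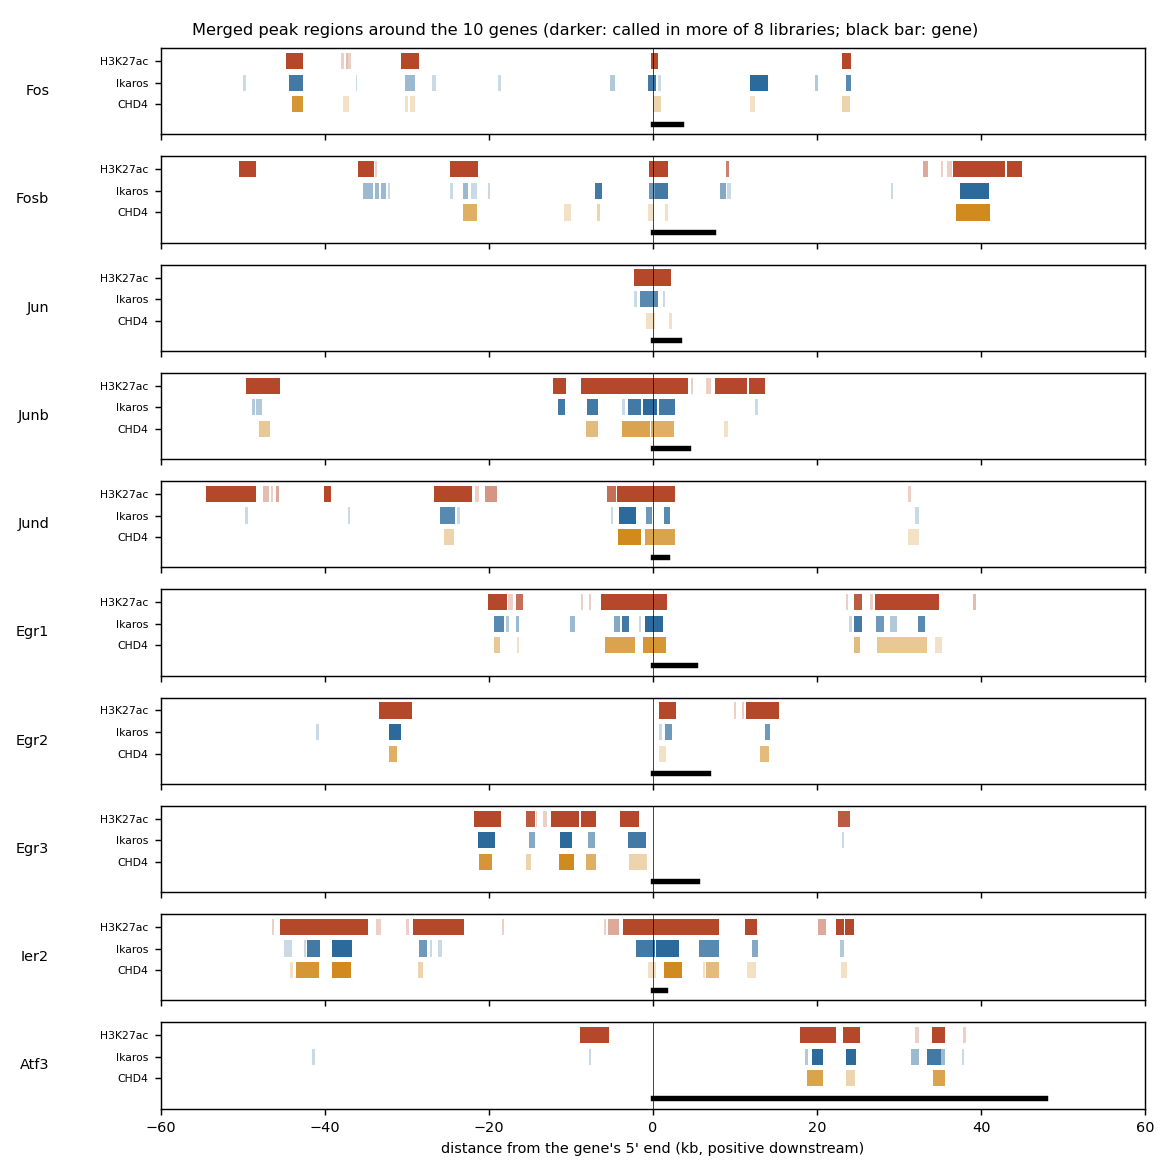
Merged regions of H3K27ac, Ikaros and CHD4 by distance (kb) from the outermost annotated 5′ end of each of the 10 genes, with darker shades for regions called in more of the 8 libraries of a target and a black bar for the gene. H3K27ac lies within 1 kb of a start of 9 of the 10 genes in all 8 libraries, Jun stands alone in its window, and 12 of the 95 Ikaros regions were called in all 8 libraries.

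The surroundings of the genes differed, as the map of regions around the 10 genes shows. Jun lay in the emptiest window, with 12 H3K27ac peaks, 8 Ikaros peaks and 2 CHD4 peaks over all libraries. Ier2 had the most Ikaros peaks (68) and CHD4 peaks (35), and Fosb the most H3K27ac peaks (83). Of the 81 H3K27ac regions, 9 covered or touched the 1 kb around a start of one of the 10 genes, 32 were promoters of a neighbouring gene and 40 were distal. In all, 41 of the 81 (50.6%) were called in every H3K27ac library, against 37.4% of all H3K27ac regions. An Ikaros site, defined as an Ikaros region called in both libraries of at least 1 time after 4-OHT, overlapped 35 of the 81 (43.2%), against 24.2% of all H3K27ac regions.

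H3K27ac was present at the promoters before 4-OHT and stayed called throughout. Both libraries of every time had an H3K27ac peak within 1 kb of a start of all members except Egr3, whose nearest region ended 1751 bp upstream. At 0 h that made 9 of 10 genes, against 44.4% of all protein-coding promoters. The acetylated regions ranged in width from 877 bp at Fos, through 1650 bp at Atf3, 1960 bp at Egr2, 2344 bp at Fosb, 4616 bp at Jun, 7058 bp at Jund and 8095 bp at Egr1, to 11734 bp at Ier2 and 13046 bp at Junb.

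The sequences before 4 of these starts are shown because H3K27ac passed a test there (Fos, Junb), because an Ikaros peak was listed at 2 h and not at 0 h (Egr2), or because the letters of the Ikaros core motif lie there (Jun). They are the 250 bases upstream of a RefSeq start on GRCm38.p6, written 5′ to 3′ on the gene's strand. Capitals mark TGACG, the core of the site bound by CREB and ATF proteins, on either strand, and the CArG box bound by SRF.
Fos, chr12:85473640-85473889, plus strand: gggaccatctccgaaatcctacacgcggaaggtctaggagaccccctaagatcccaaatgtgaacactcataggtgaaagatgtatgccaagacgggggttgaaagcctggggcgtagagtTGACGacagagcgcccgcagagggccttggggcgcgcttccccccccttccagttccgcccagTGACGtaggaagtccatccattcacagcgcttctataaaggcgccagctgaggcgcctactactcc
Jun, chr4:95052223-95052472, minus strand: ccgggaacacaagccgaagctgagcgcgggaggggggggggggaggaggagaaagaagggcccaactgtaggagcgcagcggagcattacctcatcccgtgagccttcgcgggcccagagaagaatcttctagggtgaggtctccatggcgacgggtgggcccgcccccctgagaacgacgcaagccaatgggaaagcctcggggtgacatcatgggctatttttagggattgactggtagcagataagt
Junb, chr8:84978749-84978998, minus strand: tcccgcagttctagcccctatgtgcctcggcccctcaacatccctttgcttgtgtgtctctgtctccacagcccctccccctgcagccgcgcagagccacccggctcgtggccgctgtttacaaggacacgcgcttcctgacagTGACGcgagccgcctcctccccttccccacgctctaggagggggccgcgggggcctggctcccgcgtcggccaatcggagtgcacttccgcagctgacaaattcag
Egr2, chr10:67537619-67537868, plus strand: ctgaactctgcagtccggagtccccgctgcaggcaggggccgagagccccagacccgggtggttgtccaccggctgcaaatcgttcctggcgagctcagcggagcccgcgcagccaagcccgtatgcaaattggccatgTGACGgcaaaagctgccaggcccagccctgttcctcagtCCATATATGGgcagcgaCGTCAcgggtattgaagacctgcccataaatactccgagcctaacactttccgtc
RefSeq promoters were matched for 7 of the 10 genes (Fos, Fosb, Jun, Junb, Jund, Egr2 and Atf3). TGACG lay 129 and 66 bases before the Fos start, 106 before that of Junb, and 111 and 55 before that of Egr2, where a CArG box lay at 72. At least 1 TGACG was found at 5 of the 7 genes, against 17.8% of 32851 promoters of the same length, and a CArG box at 1 of 7 against 1.47%. Bases more than 250 before a start were not searched, so a site further upstream would be missed. The 7 genes have 11 promoters in that table, of which Egr2 has 5, and a gene counts here if any of them matches, so the shares of genes and of promoters are not like for like. The whole palindrome TGACGTCA (1.55% of promoters), the AP-1 site TGANTCA (6.75%) and the EGR site GCGTGGGCG (0.536%) were found at none of the 7, and the Ikaros core TGGGAA at Jun and Jund against 21.6% of promoters. Its shorter form GGGAA was found at 6 of the 7 (all but Atf3) against 56.2% of promoters. The RefSeq start of Jund (70697739) lies more than 1 kb upstream of the annotated start used for its distances and peaks (70698949). Both strands were searched, TGACG lies within TGACGTCA and GGGAA within TGGGAA, and TGACG was added after these sequences had been read.

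Changes with time were measured in 2 ways at the 41 H3K27ac regions called in all 8 libraries. The first was the authors' fold enrichment over the local background, taken at the highest peak of the region. The second was the number of fragments at the summit, recovered from the fold and its p-value and divided by the mean coverage of the library. Both were fitted with limma over all regions called in all 8 libraries, on the log2 scale and after quantile normalisation, so changes are relative to the other regions. That matters here because the median of all regions itself fell, from 17.9 and 16.3 times the mean coverage in the 0 h libraries to 12.4 and 12.2 in the 2 h libraries, a shift of −0.25 at 1 h and −0.47 at 2 h on the log2 scale. The levels given for a promoter are the highest anywhere in its region. In a wide region that peak can lie more than 1 kb from a start and can differ between libraries. At Junb in replicate 2 at 1 h the region had a fold of 11.5, against 11.1 within 1 kb of a start.

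On the fold, none of the 41 regions differed from 0 h at any time (limma, smallest adjusted p = 0.551 at 30 min, 0.226 at 1 h and 0.299 at 2 h). Over all 14716 regions the same fit called 0.0% at 30 min, 0.122% at 1 h and 0.612% at 2 h. At an unadjusted p under 0.05 the fold fit gave 1, 2 and 4 of the 41, against 8.99%, 12.7% and 15.4% of all regions. The fold had a median standard error of 0.29 on the log2 scale, and the summit fragments one of 0.16. On the fragments, 0 regions were higher and 2 lower at 30 min, 1 higher and 2 lower at 1 h, and 3 higher and 4 lower at 2 h. The background of that fit was 0.571% higher and 3.41% lower at 30 min, 4.79% and 7.48% at 1 h, and 8.93% and 9.22% at 2 h, so the members' shares lay near those of all regions. With each library centred on its median instead, the calls were 1080 higher and 1010 lower at 1 h and 1888 and 1086 at 2 h over all regions, and 1 and 2 and then 5 and 3 among the 41. The median change of the 41 regions on the fragments was 0.02, −0.03 and 0.01 at the 3 times, against 0.03, 0.03 and 0.01 over all regions. Without a single 0 h library, replicate 2, the fragments gave no call at any time, and without the other 0 h library 0, 1 and 3.

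**Figure D2:**
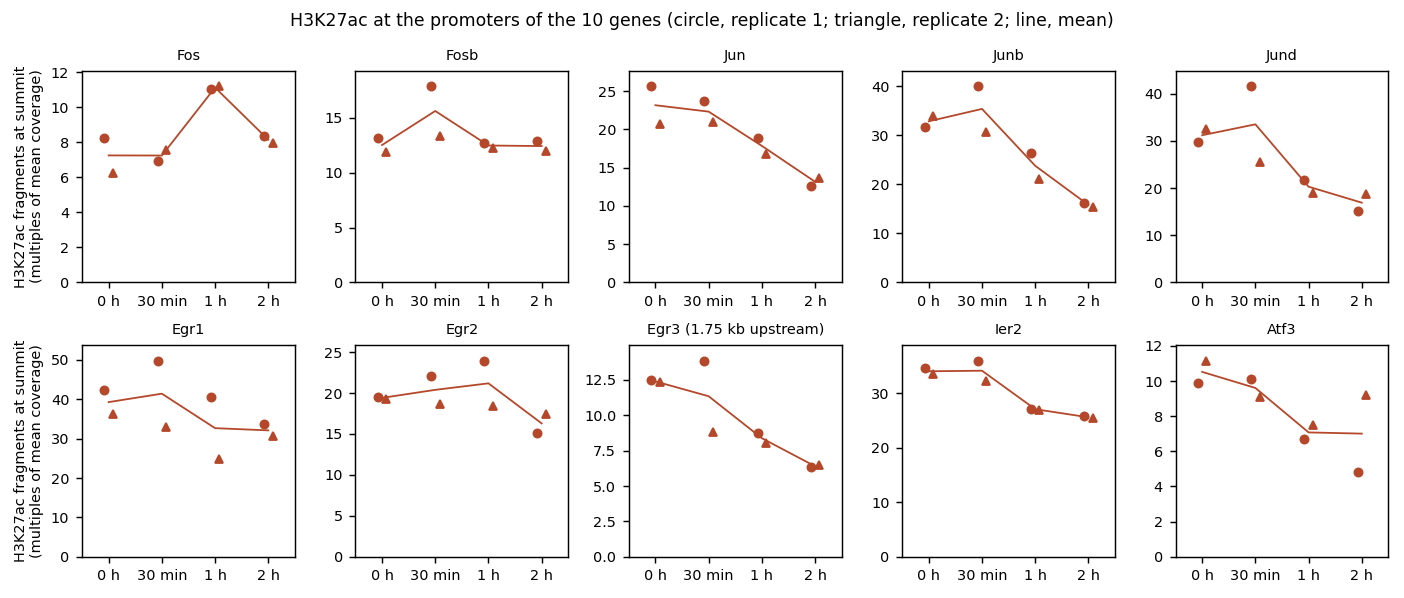
H3K27ac fragments at the summit of the promoter region of each gene, as multiples of the mean coverage of the library (y axis, from 0, not scaled between libraries), at the 4 times, with a circle for replicate 1, a triangle for replicate 2 and a line through the means. Fos is highest at 1 h (11.1 and 11.2), whereas Junb goes from 31.8 and 34.0 at 0 h to 16.2 and 15.4 at 2 h. Egr3 is shown by the region 1751 bp upstream of its start.

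Fos, the prototype AP-1 partner of JUN, was the promoter that rose. Its region (chromosome 12, 85473587 to 85474463, over the start and 5′ UTR) had 8.23 and 6.28 times the mean coverage at 0 h, 6.93 and 7.57 at 30 min, 11.1 and 11.2 at 1 h, and 8.34 and 7.96 at 2 h. Both 1 h libraries lay above all other libraries, whereas the 2 h and 0 h libraries overlapped. Relative to the other regions Fos rose by 0.82 ± 0.17 at 1 h (log2 ± SE, limma adjusted p = 0.00855) and by 0.54 ± 0.17 at 2 h (limma adjusted p = 0.0416), and the value at 30 min was −0.03 ± 0.17. Before scaling, the differences were 0.63 at 1 h and 0.18 at 2 h. The folds of the same region were 5.64 and 4.93 at 0 h, 5.68 and 6.03 at 30 min, 8.64 and 8.44 at 1 h, and 6.72 and 3.87 at 2 h. On the fold the 1 h difference was of like size, 0.93 ± 0.31, and did not pass (limma adjusted p = 0.226). Leaving out single libraries kept the fragment call at 1 h in 6 of 8 fits (highest adjusted p = 0.0984) and at 2 h in 4 of 8.

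Fosb, a FOS paralogue that also pairs with JUN proteins, had 13.2 and 11.9 times the mean coverage at 0 h, 17.9 and 13.4 at 30 min, 12.7 and 12.3 at 1 h, and 12.9 and 11.9 at 2 h. Replicate 1 at 30 min stood above the other libraries, which lay close together. While most regions fell, Fosb kept its level, so the relative change at 2 h was 0.44 ± 0.14 (limma adjusted p = 0.0520) and just missed the threshold, whereas with median centring it passed (0.46, limma adjusted p = 0.0403).

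The JUN promoters had higher levels at 0 h than the FOS promoters. Jun, which forms AP-1 with FOS proteins or with itself, had 25.6 and 20.7 times the mean coverage at 0 h, 23.7 and 20.9 at 30 min, 18.9 and 16.8 at 1 h, and 12.6 and 13.7 at 2 h. Both 2 h libraries lay below all others, but relative to the other regions the change of −0.35 ± 0.15 did not pass (limma adjusted p = 0.129). Junb, an AP-1 subunit that can oppose JUN and is well known in lymphoid cells, had 31.8 and 34.0 at 0 h, 39.98 and 30.8 at 30 min, 26.5 and 21.1 at 1 h, and 16.2 and 15.4 at 2 h. The groups at 0 h and 2 h were far apart, and Junb fell by 0.61 ± 0.14 relative to the other regions (limma adjusted p = 0.0132). It was called in 6 of 8 fits without a single library (highest adjusted p = 0.125). On the fold the 2 h value was −0.59 ± 0.26 (limma adjusted p = 0.302).

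Jund, the most constitutively expressed JUN, had 29.9 and 32.5 times the mean coverage at 0 h, 41.6 and 25.5 at 30 min, 21.7 and 18.9 at 1 h, and 15.2 and 18.7 at 2 h. The 1 h and 2 h libraries lay below both 0 h libraries, while the 30 min replicates stood on either side of them. The relative change was −0.40 ± 0.17 at 1 h (limma adjusted p = 0.147) and −0.46 ± 0.17 at 2 h (limma adjusted p = 0.0854), neither of which passed. Of the JUN genes, only Junb therefore passed on the fragments, and the difference between Junb and Jund or Jun was not tested.

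Egr1, the best-studied EGR gene, had the highest promoter level at 0 h, with 42.3 and 36.3 times the mean coverage, then 49.8 and 33.0 at 30 min, 40.5 and 24.8 at 1 h, and 33.6 and 30.6 at 2 h. The groups overlapped between 0 h and 30 min and between 0 h and 1 h. Relative changes were 0.06 ± 0.16, −0.15 ± 0.16 and 0.08 ± 0.16, with limma adjusted p of 0.894, 0.586 and 0.751. Its fold at 0 h was 18.2 in replicate 1 and 27.3 in replicate 2, and the recovered background under the summit was 8.7 and 4.3 fragments in those libraries, so the replicates changed places between the 2 measures.

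Egr2, an EGR factor of lymphocyte activation, had 19.5 and 19.3 times the mean coverage at 0 h, 22.1 and 18.7 at 30 min, 23.96 and 18.4 at 1 h, and 15.2 and 17.4 at 2 h, with changes of 0.04 to 0.35 that did not pass (smallest limma adjusted p = 0.144). At Egr3, a close relative that acts with Egr2 in lymphocytes, the region upstream of the start had 12.5 and 12.3 at 0 h, 13.9 and 8.83 at 30 min, 8.76 and 8.00 at 1 h, and 6.32 and 6.47 at 2 h. The 2 h libraries were the lowest and close to each other, and the region fell by 0.59 ± 0.15 (limma adjusted p = 0.0183, called in 5 of 8 fits without a single library, highest adjusted p = 0.127). On the fold the value was −0.53 ± 0.26 (limma adjusted p = 0.349).

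Ier2, a nuclear protein whose mRNA is induced with that of Fos, had a steady promoter, with 34.6 and 33.5 times the mean coverage at 0 h, 36.0 and 32.3 at 30 min, 27.2 and 26.9 at 1 h, and 25.8 and 25.4 at 2 h. The fall was that of the median region, and the relative change at 2 h was 0.01 ± 0.16 (limma adjusted p = 0.971). Atf3 was the least certain promoter, with 9.88 and 11.2 at 0 h, 10.1 and 9.08 at 30 min, 6.68 and 7.47 at 1 h, and 4.80 and 9.21 at 2 h. The 2 h replicates lay far apart, and the changes of −0.15, −0.33 and −0.29 had a standard error of 0.27 and did not pass (smallest limma adjusted p = 0.453). At 30 min no promoter of the 10 genes passed in either fit.

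Beyond the promoters, 2 regions were lower on the fragments already at 30 min, and an Ikaros site overlapped both. The first lay downstream of Egr1 (chromosome 18, 34886901 to 34894728, its edge 25.7 kb from the nearest Egr1 start, intergenic), with 41.6 and 32.5 times the mean coverage at 0 h, 28.5 and 21.4 at 30 min, 24.2 and 20.3 at 1 h, and 21.5 and 21.2 at 2 h. Both 0 h libraries lay above all later ones. It fell by 0.61 ± 0.14 at 30 min (limma adjusted p = 0.0347) and by 0.53 ± 0.14 at 1 h (limma adjusted p = 0.0289), and at 2 h the relative value was −0.37 ± 0.14 (limma adjusted p = 0.0921). On the fold the 30 min value was −0.56 ± 0.27 (limma adjusted p = 0.567).

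The second lay in an intron of Atf3 (chromosome 1, 191195719 to 191200145, its edge 12.4 kb upstream of the nearest internal start). It had 43.7 and 37.0 times the mean coverage at 0 h, 28.5 and 23.4 at 30 min, 32.5 and 27.8 at 1 h, and 24.01 and 23.4 at 2 h. Again both 0 h libraries were the highest. It fell by 0.68 ± 0.14 at 30 min (limma adjusted p = 0.0198), whereas the fold, with 25.1 and 13.8 at 0 h and 22.7 and 12.6 at 30 min, gave −0.16 ± 0.32 (limma adjusted p = 0.924). Each of the 2 calls at 30 min, and the Egr1 call at 1 h, was kept in 4 of 8 fits without a single library, and both 30 min calls were lost when any 0 h or 30 min library was left out.

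Apart from the Egr3 region described above, the other 4 regions outside the promoters of the 10 genes that passed on the fragments did so later. A region without an Ikaros site in Pgpep1, 48.4 kb upstream of Jund, had 13.6 and 11.9 times the mean coverage at 0 h, 9.06 and 7.57 at 30 min, 6.68 and 7.74 at 1 h, and 6.82 and 5.48 at 2 h, and fell by 0.60 ± 0.17 at 1 h (limma adjusted p = 0.0376) and by 0.70 ± 0.17 at 2 h (limma adjusted p = 0.0151). The promoter of Cacna1a, a calcium channel gene 23.5 kb downstream of the Ier2 start, had no Ikaros site either and fell by 0.67 ± 0.16 at 2 h (limma adjusted p = 0.0151), a call lost with median centring (limma adjusted p = 0.0516). Without a single library, the Pgpep1 call was kept in 3 of 8 fits at 1 h and 5 at 2 h, and the Cacna1a call in 5. In the other direction, the promoter of Hook2, 10.7 kb upstream of Junb and with an Ikaros site, rose by 0.65 ± 0.17 at 2 h (limma adjusted p = 0.0208). The shared promoter of Cd3eap and Ppp1r13l, 48.4 kb upstream of Fosb and without an Ikaros site, rose by 0.77 ± 0.16 (limma adjusted p = 0.00724), and without a single library this call was kept in 7 of 8 fits and that of Hook2 in 6. These rises are relative: before scaling the 0 h and 2 h libraries of both regions overlapped, at 12.0 and 8.37 against 13.4 and 10.4 for Hook2 and at 18.1 and 13.5 against 17.9 and 21.2 for Cd3eap and Ppp1r13l. On the fold none of these 4 regions passed.

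By kind of region, the 13 distal regions had medians of −0.18, −0.18 and −0.28 on the fragments at 30 min, 1 h and 2 h, the 9 promoters of the immediate early genes 0.04, −0.14 and 0.01, and the 19 promoters of neighbours 0.06, 0.07 and 0.09. On the fold the medians were −0.16, −0.23 and −0.22 at the distal regions, 0.11, −0.20 and −0.21 at the promoters of the immediate early genes, and 0.05, −0.06 and 0.12 at those of neighbours. The signs differed between the measures at 2 h for the promoters of the 10 genes and at 1 h for those of neighbours. The direction of change was the same in both measures for 30, 31 and 36 of the 41 regions at the 3 times. All contrasts share the 0 h libraries.

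**Figure D3:**
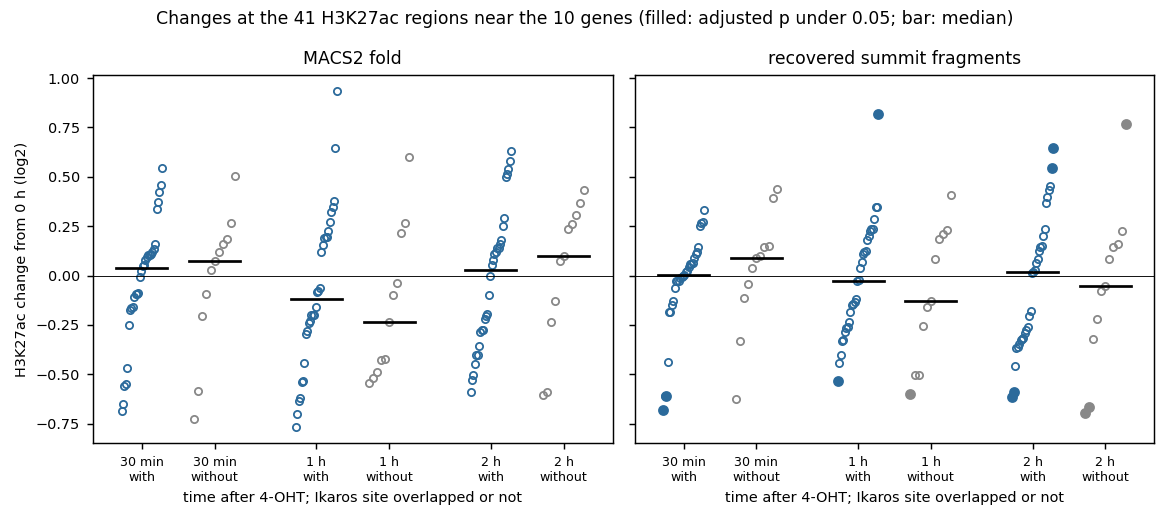
Change in H3K27ac from 0 h (log2, relative to all regions) at the 41 regions near the 10 genes, by time and by whether an Ikaros site overlaps the region, on the fold (left) and on the summit fragments (right). Each point is a region, a bar is the median and filled points have an adjusted p under 0.05. The groups with (30 regions) and without (11 regions) an Ikaros site overlap in range at each time.

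Calls on the fragments were made at regions with and without an Ikaros site. An Ikaros site overlapped 30 of the 41 regions, among them the promoter regions of all 9 acetylated genes, 11 promoters of neighbours and 10 distal regions, and the 11 without one were 8 promoters of neighbours and 3 distal regions. On the fragments, 0, 1 and 2 of the 30 regions with a site were higher at 30 min, 1 h and 2 h and 2, 1 and 2 were lower. Of the 11 without a site, 0, 0 and 1 were higher and 0, 1 and 2 lower. Over the whole series the same fit called 40, 314 and 574 higher and 322, 765 and 924 lower of 8257 regions with a site, and 44, 391 and 740 higher and 180, 335 and 432 lower of 6458 without, so the few calls near the 10 genes do not tell the kinds of region apart.

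The medians did not separate the 2 kinds of region either. On the fold they were 0.04, −0.12 and 0.03 with a site and 0.07, −0.24 and 0.10 without one at the 3 times. On the fragments, an alternative chosen after seeing the data for this split, they were 0.00, −0.03 and 0.02 with a site and 0.09, −0.13 and −0.05 without. The difference between them changed sign between replicates at 30 min and 2 h on the fold (0.16 in replicate 1 and −0.35 in replicate 2 at 30 min) and at 1 h on the fragments (−0.06 and 0.21). It was negative in both replicates at 1 h on the fold (−0.07 and −0.0095) and at 30 min on the fragments (−0.01 and −0.11), and positive in both at 2 h on the fragments (0.10 and 0.16). Over all regions in the series the difference was negative in both replicates at each time, −0.06, −0.09 and −0.08 on the fold and −0.05, −0.10 and −0.09 on the fragments. Since every acetylated promoter of the 10 genes carried a site, the promoters give no comparison with and without Ikaros.

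**Figure D4:**
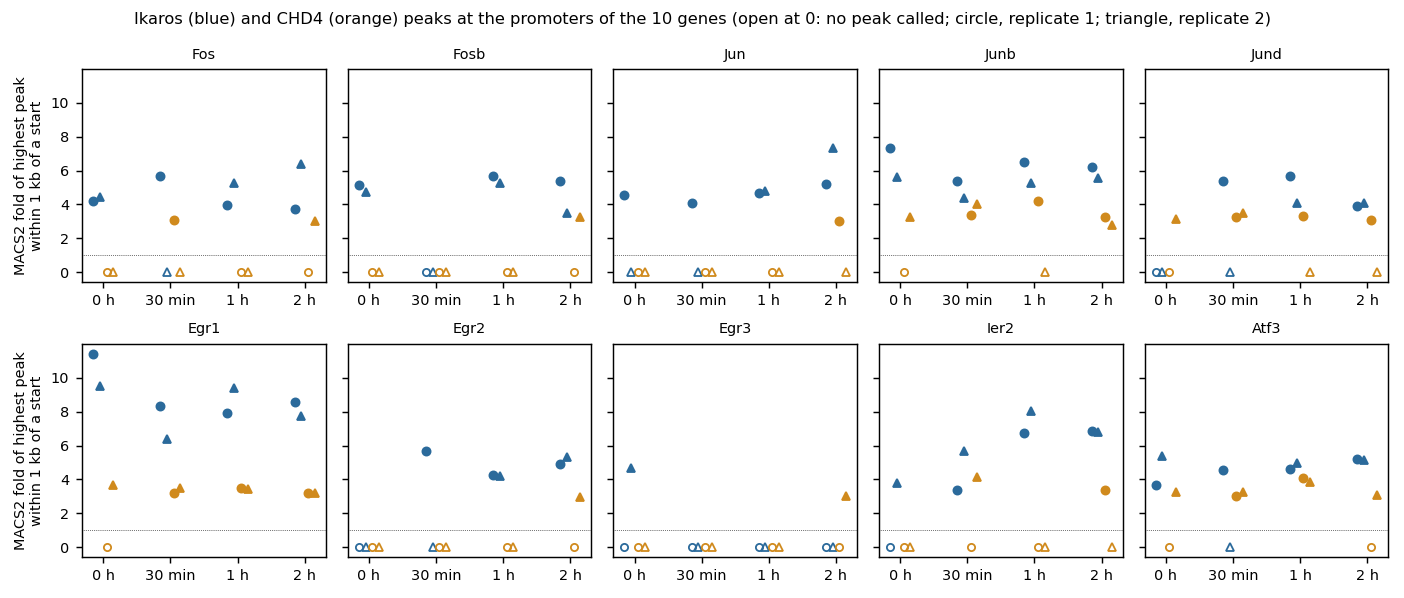
Fold of the highest Ikaros peak (blue) and CHD4 peak (orange) within 1 kb of a start of each gene, by time, with a circle for replicate 1 and a triangle for replicate 2. Open symbols at 0 mean that no peak was called, and the dotted line marks a fold of 1. Egr1 has the highest Ikaros folds (6.37 to 11.4), and CHD4 folds lie between 2.77 and 4.19.

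Ikaros was called at some of the promoters before 4-OHT. In both 0 h libraries an HA-Ikaros peak lay within 1 kb of a start of 5 genes, namely Fos, Fosb, Junb, Egr1 and Atf3, against 26.5% of the 9737 acetylated protein-coding promoters. At 30 min there were 3 (Junb, Egr1 and Ier2; 15.9% of acetylated promoters), and at 1 h and 2 h all genes but Egr3, 9 in each case (47.9% and 48.1%). The list lengths moved with these counts: the 2 Ikaros lists held 7822 and 9527 peaks at 0 h, 9181 and 5373 at 30 min, 12447 and 14874 at 1 h and 14225 and 14179 at 2 h. With lists cut to equal size, the highest folds kept, the counts were 2, 2, 2 and 5 of 10, against 15.5%, 12.9%, 17.2% and 17.4% of the acetylated promoters on the same lists. Near Egr3 a merged Ikaros region with its edge 897 bp before a start was called in 7 libraries, among them both at 1 h and at 2 h. Only in replicate 2 at 0 h did its peak reach within 1 kb of a start.

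Egr1 had the strongest promoter peak, with folds of 11.4 and 9.51 at 0 h, 8.32 and 6.37 at 30 min, 7.90 and 9.40 at 1 h, and 8.57 and 7.77 at 2 h. The 0 h folds were the highest, and no change passed (limma adjusted p = 0.865 at 30 min, 0.806 at 1 h and 0.947 at 2 h). Junb had promoter peaks with folds of 7.33 and 5.62 at 0 h and 6.23 and 5.56 at 2 h. The promoters of Jund and Egr2 had no peak at 0 h and one in both 2 h libraries, at 3.92 and 4.06 for Jund and 4.90 and 5.33 for Egr2. The Egr2 peak region lay 122 bp before a start (chromosome 10, 67536965 to 67537747) and reached into the sequence printed above.

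CHD4 was called at fewer of the promoters. Both libraries had a peak at 0 genes at 0 h (4.66% of acetylated promoters), 4 at 30 min (Junb, Jund, Egr1 and Atf3; 5.65%), 2 at 1 h (Egr1 and Atf3; 11.0%) and 2 at 2 h (Junb and Egr1; 13.0%). At 0 h replicate 2, with 6000 peaks, had 4 of them (Junb, Jund, Egr1 and Atf3) and replicate 1, with 2488 peaks, had none. Egr1 had a CHD4 peak in 7 of the 8 libraries, with folds of 3.18 to 3.64. With a −log10 q of at least 3, no gene had one in both libraries of any time, where 0.318%, 0.298%, 0.893% and 0.37% of acetylated promoters did. With lists of equal size the counts were 0, 3, 1 and 0, against 2.54%, 3.02%, 3.57% and 3.13%.

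Of the 95 Ikaros regions, 12 (12.6%) were called in all 8 libraries, against 9.66% of all Ikaros regions. None passed on the fold (limma, smallest adjusted p = 0.0977, 0.109 and 0.170), where 0.0434%, 0.694% and 0.824% of 2305 regions passed. At an unadjusted p under 0.05 the fold gave 3, 3 and 1 of the 12, against 12.97%, 17.1% and 15.9% of all Ikaros regions. On the fragments 2 of the 12 passed, both at 1 h, 1 higher and 1 lower. The background of that fit was 0.868% higher and 2.52% lower at 30 min, 3.86% and 5.86% at 1 h, and 3.47% and 5.25% at 2 h.

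The Ikaros region that was higher lay upstream of Jund (chromosome 8, 70694789 to 70696818, its edge 2.1 kb from the start), with 8.07 and 8.63 times the mean coverage at 0 h, 13.8 and 11.1 at 30 min, 15.9 and 17.5 at 1 h, and 9.82 and 14.1 at 2 h. Every later library lay above both 0 h libraries, and Ikaros there rose by 0.77 ± 0.19 at 1 h (limma adjusted p = 0.0443). The region that was lower lay at the 3′ side of Ier2 (chromosome 8, 84659670 to 84662506, summit 2551 bp beyond the start and past the end of the gene), with 15.6 and 23.0 at 0 h, 10.2 and 8.07 at 30 min, 9.92 and 12.5 at 1 h, and 9.47 and 14.6 at 2 h. Both 0 h libraries lay above every later one, and Ikaros fell by 0.75 ± 0.19 at 1 h (limma adjusted p = 0.0487). The adjacent Ikaros region over the Ier2 start (84662601 to 84664969) went the other way and could not be fitted. It had no peak at 0 h in replicate 1 and 7.99 times the mean coverage in replicate 2. Later values were 8.27 and 8.07 at 30 min, 10.3 and 15.2 at 1 h, and 9.82 and 13.65 at 2 h. Both calls were kept in 2 of 8 fits without a single library, and the Ier2 call was lost with the replicate as a block (limma adjusted p = 0.0544).

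Differences from 0 h larger than these, none of which passed, lay in 4 other regions. At the Lyl1 region 36.7 kb upstream of Ier2, Ikaros had 37.3 and 59.1 times the mean coverage at 0 h, 19.7 and 13.1 at 30 min, 17.9 and 25.1 at 1 h, and 13.3 and 27.8 at 2 h (−1.18 ± 0.32 at 30 min, limma adjusted p = 0.0717). At the region 9.88 kb upstream of Egr3 it had 8.07 and 9.27 at 0 h, 14.2 and 15.1 at 30 min, 14.7 and 19.7 at 1 h, and 12.3 and 12.2 at 2 h (0.89 ± 0.23 at 30 min, limma adjusted p = 0.0674). In both, the 0 h libraries stood apart from all later ones. At the region 30.7 kb upstream of Egr2 it had 15.9 and 19.8 at 0 h and 10.2 and 7.06 at 30 min (−0.79 ± 0.20, limma adjusted p = 0.0674), and at the region in the Atf3 intron 6.40 and 10.6 at 0 h and 11.4 and 17.7 at 30 min (0.91 ± 0.33, limma adjusted p = 0.147). With median centring in place of quantile normalisation 5, 5 and 2 of the 12 regions passed at the 3 times, against 345, 479 and 464 of all 2305 Ikaros regions. These 4 regions were among them at 30 min (limma adjusted p = 0.000881 at Lyl1, 0.0226 near Egr3, 0.00746 near Egr2 and 0.0388 in Atf3).

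The sequences at the summits of 3 of these Ikaros regions are shown because Ikaros or H3K27ac differed between times there. Each is the 101 bases around the median summit on the plus strand of GRCm38.p6, and capitals mark GGGAA on either strand, the short core bound by Ikaros.
Jund, chr8:70695482-70695582: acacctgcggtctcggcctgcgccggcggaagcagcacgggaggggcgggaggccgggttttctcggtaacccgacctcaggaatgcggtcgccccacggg
Ier2, chr8:84660251-84660351: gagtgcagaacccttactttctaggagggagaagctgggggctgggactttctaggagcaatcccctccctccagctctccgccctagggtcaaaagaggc
Atf3, chr1:191198069-191198169: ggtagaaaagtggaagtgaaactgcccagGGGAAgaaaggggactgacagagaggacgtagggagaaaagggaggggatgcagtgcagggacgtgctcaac
The Atf3 window held 1 match to GGGAA and the windows at Jund and past Ier2 none. Over the 12 regions 4 windows held at least 1 GGGAA, against 47.4% of the 2305 regions, and TGGGAA was in 0 of 12 against 17.8%. The summits of single libraries spread over 131 bp at Jund, 347 bp past Ier2 and 494 bp in Atf3, and over up to 1499 bp (near Fos) among the 12 regions. That is wider than the window of 101 bases, so a window without a match does not show that the bound site lacks one. The Atf3 window lies inside the intronic H3K27ac region that was lower at 30 min.

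For CHD4, 5 of the 54 regions (9.26%, against 4.71% of all CHD4 regions) were called in all 8 libraries, near Fosb, Jund, Egr3 and Ier2 (2 regions), with folds of 2.62 to 4.74. Changes lay between −0.23 and 0.23 and none passed (limma, smallest adjusted p = 0.783), as for all 723 CHD4 regions, of which 0.0% passed at 30 min, 0.0% at 1 h and 0.0% at 2 h. At an unadjusted p under 0.05 there were 0 of the 5 at each time and 48, 41 and 58 of the 723.

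Other regions appeared or disappeared from the lists. In the lists of both 2 h replicates, and of neither at 0 h, were 1 of 81 H3K27ac regions (3.73% of all H3K27ac regions), 10 of 95 Ikaros regions (12.0%) and 3 of 54 CHD4 regions (5.3%). In those of both 0 h replicates, and of neither at 2 h, were 1 H3K27ac region (2.78%), 0 Ikaros regions (3.59%) and 0 CHD4 regions (1.45%). With lists of equal size 0 of 32 CHD4 regions were gained (2.73% of all), and with a −log10 q of at least 3 the count was 0 of 16 (1.71%).

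The H3K27ac region that appeared lay in an intron of Reep2, 15.9 kb upstream of Egr1 (chromosome 18, 34843060 to 34843927). No 0 h library had it, and all later ones did, with folds of 4.53 and 3.71 at 30 min, 3.92 and 3.12 at 1 h, and 4.75 and 3.86 at 2 h. An Ikaros region that was also new by 2 h (34843111 to 34843495) lay within it, called in 1 library at 1 h at a fold of 3.69 and in both at 2 h at 4.68 and 5.44. The H3K27ac region that disappeared was at the promoter of Lsm4, 19.0 kb upstream of Jund, with folds of 5.00 and 3.72 at 0 h, and had no Ikaros site.

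Of the 10 new Ikaros regions, 4 lay 22.6 to 34.2 kb upstream of Fosb around Ercc1, with folds of 2.51 to 4.90 at 2 h, and 2 upstream of Egr1 in Reep2. The others were at the promoters of Jund and Egr2, at Trir 47.7 kb upstream of Junb, and at Ado 10.4 kb downstream of an Egr2 start. The Ado region had the highest folds of them, 5.34 and 5.78 at 1 h and 7.01 and 8.00 at 2 h, after 3.11 in 1 library at 30 min. A CHD4 region new by 2 h overlapped it (3.56 and 3.39 at 1 h, 3.12 and 3.27 at 2 h). The H3K27ac region over the Ado promoter had 44.5 and 34.0 times the mean coverage at 0 h and 33.4 and 31.6 at 2 h, a relative change of 0.13 ± 0.16 (limma adjusted p = 0.618).

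Genes related to the 10 by function were taken as lists. Of 32 other immediate early genes, 23 were acetylated at 0 h and 21 could be fitted. On the fold none passed, and on the fragments 0 were higher and 1 lower at 30 min, 2 and 3 at 1 h, and 2 and 3 at 2 h. Those with the lowest F test p on the fold were Nr4a1, an orphan nuclear receptor (adjusted p = 0.241), Fosl2, a FOS relative (0.329), and, at the same value of 0.350, Klf10, a Krüppel-like factor, and Nfkbia, the inhibitor of NF-κB. Klf10 fell by 0.59 ± 0.17 on the fragments at 2 h (limma adjusted p = 0.0312). Nr4a1 had folds of 5.14 and 5.52 at 0 h and 7.58 and 10.1 at 30 min, which did not overlap and did not pass (0.64 ± 0.30, limma adjusted p = 0.557).

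Of 18 dimer partners and relatives of AP-1, 13 were fitted, and on the fragments 0, 0 and 1 were higher and 1, 1 and 1 lower. Bach2, a repressor that competes for AP-1 sites in B cells, fell by 0.61 ± 0.15 at 30 min, 0.64 ± 0.15 at 1 h and 0.64 ± 0.15 at 2 h (limma adjusted p = 0.0368, 0.0140 and 0.0112), and Atf5 and Nfe2l1, which had the next lowest F test p on the fold, did not pass. On the fold no gene of this list passed, Bach2 included (limma adjusted p = 0.551, 0.194 and 0.454). Of 18 upstream kinases and SRF factors, 17 were fitted, with 0, 0 and 1 higher and 0, 1 and 1 lower. Elk3, an ETS partner of SRF, fell by 1.23 ± 0.15 at 1 h and fell by 1.09 ± 0.15 at 2 h on the fragments (limma adjusted p = 0.00072 and 0.000824) and had −1.19 ± 0.26 and −1.04 ± 0.26 on the fold (limma adjusted p = 0.0778 and 0.0807). Map2k2 and Rps6ka1 did not differ from 0 h at any of the 3 times in the fit, and neither did Nab1 and Nab2, the EGR corepressors. Rps6ka1 did pass the F test over all times on the fragments (limma adjusted p = 0.0287). Among the 7893 fitted protein-coding promoters, 39 were higher and 89 lower at 30 min, 228 and 318 at 1 h, and 333 and 503 at 2 h.

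Between 0 h and 2 h the genes with Ikaros in both libraries at the promoter went from 11 to 19 of the other immediate early genes, from 4 to 8 of the AP-1 partners, from 6 to 11 of the kinases and SRF factors, and stayed at 2 for Nab1 and Nab2. Over all protein-coding promoters the share went from 12.04% to 21.9%, and over the acetylated ones from 26.5% to 48.1%, as the Ikaros lists grew longer. Fos had the lowest F test p of the 10 genes on the fold. The promoters whose folds over the 8 libraries were most like those of Fos were Depdc5 (Pearson r = 0.978), Fam53c (0.956) and Rgs18 (0.954) among 9271 promoters, a ranking over 8 libraries that holds the highest of many correlations. An exact two-sided permutation test of the rank of the fold among all peaks of its library against time over 2520 arrangements gave its lowest p among the 10 genes for Fosb (rho = 0.878, exact permutation p = 0.0103, adjusted p = 0.260), with a smallest possible p of 0.000794, and called 0 of the 14716 regions. The Fosb rank went from 62.5% and 57.6% of the peaks of the library at 0 h to 74.5% and 74.2% at 2 h, while the folds themselves were 10.4 and 9.09 at 0 h and 7.76 and 9.20 at 2 h, so this direction is relative to the other peaks. The lists compared held 25095 and 21468 peaks at 0 h and 33664 and 25141 at 2 h, and a longer list raises the rank of an unchanged fold where the added peaks are weak, so the rank is no measure of a rise at Fosb.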

How the data were processed

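ChIP-seq peak lists for H3K27ac, Ikaros and CHD4 were analysed in 8 libraries each, grouped by the library titles. Per the study's methods, the authors used Bowtie2 2.4.2 to place read pairs on mm10, marked duplicates with Picard 2.23.7 and called peaks with MACS2 2.2.7.1, in broad mode for CHD4. For the 30 min libraries these settings are not given in the sources used here. The lists deposited by the authors give per peak a fold over the local background (a ratio), −log10 p, −log10 q and a display score, which was not used. They hold no counts, so the study's count model could not be run. The 8 inputs were not analysed here.

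Overlapping peaks were merged per target, and the highest fold per region, on the log2 scale, was fitted with limma 3.58.1 (R 4.3.3) after quantile normalisation, as 30 min, 1 h and 2 h minus 0 h, with Benjamini-Hochberg adjustment over all regions and a threshold of 0.05. Summit fragments were recovered from the fold and −log10 p deposited by the authors and divided by the mean coverage. At 99.99% to 100% of peaks with −log10 p under 40 they were whole within 0.05 fragments. They carry counting error, which is larger where the summit holds few fragments. Distances are to starts in GENCODE M21. Computations used Python 3.11.15 with pandas 2.3.3, and the fit and the recovery were tested on simulated data. All 10 genes are named whatever their values, and of each other list the up to 3 genes, with ties, with the lowest F test p on the fold. The genes, lists and markers were chosen with earlier results of these data known. The alternatives were another scaling, value per region, peak threshold, Ikaros site, window, a replicate block, time as a number and leaving out each library.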

Additional observations from a re-analysis of the deposited data

How the results depend on the processing

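None of the 41 H3K27ac regions near the 10 genes passed on the fold with median centring, the width-weighted mean, a stricter −log10 q or fold, or the replicate block, whereas the recovered fragments called 9 of them, and of the 12 Ikaros regions 2 passed with median centring and 2 with the fragments. Over all regions in the series, H3K27ac calls (0, 18 and 90 at 30 min, 1 h and 2 h, 12 at any time by the F test) became 586, 1805, 2670 and 2237 with the fragments. They became 32 at 1 h and 0 at any time with median centring, 2 at 30 min and 28 at any time with the width-weighted mean fold, 9 at 1 h and 0 at any time with −log10 q of at least 3, 1 at 30 min and 28 at any time with a fold of at least 3, and 23 at any time with time as a number. Ikaros calls (1, 16, 19 and 1) became 71, 149, 131 and 108 with median centring, 78, 224, 201 and 75 with the fragments, 8, 12 and 5 at 1 h, 2 h and any time with −log10 q of at least 3, 14, 37 and 24 at 30 min, 2 h and any time with a fold of at least 3, and 0 at any time with time as a number. CHD4 calls (0, 0, 0 and 1) became 1, 1 and 3 at 1 h, 2 h and any time with median centring, 1 at 2 h with the width-weighted mean, 1 at 30 min and 0 at any time with −log10 q of at least 3, and 0 at any time with a fold of at least 3 or time as a number. The fragments differ from the fold in leaving out the local background, and the cause of the other differences was not tested.

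With the replicate number as a block, the calls at any time became 0 for H3K27ac and 10 for Ikaros, and those for Ikaros at 2 h became 30. On the fragments the block left 1 Ikaros region near the 10 genes at 1 h in place of 2 and changed no H3K27ac count there. Deviations of same-numbered libraries correlated by −0.025 to 0.13 and not always above 0.1, so the numbers were not taken to pair the samples.

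The medians by Ikaros site moved. Without a site (−0.24 at 1 h and 0.10 at 2 h) they were −0.26 and −0.070 with sites called in at least 1 of the 6 libraries after 4-OHT, −0.20 and 0.073 with sites called in neither 0 h library, −0.14 and 0.25 within 20 kb, −0.051 and 0.07 within 100 kb, and −0.13 and −0.053 with the fragments. With a site (−0.12 and 0.03) they were −0.20 and −0.10 within 20 kb and −0.03 at 1 h with the fragments. With lists of equal size, 20% and 50% of the 10 promoters had Ikaros in both libraries at 1 h and 2 h, 0% had CHD4 at 2 h and 0% of CHD4 regions were gained. With −log10 q of at least 3, 0% of promoters had CHD4 at 30 min, 1 h or 2 h, and 0% of CHD4 regions were gained. Median centring of the fragments, which called 5, 5 and 2 of the 12 Ikaros regions and 345, 479 and 464 of all 2305, and the other checks of the fragment calls were chosen after seeing the data.

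No promoter change on the fold passed, and several changed sign: Fos at 30 min (−0.03), Egr1 at 1 h (−0.15) and Ier2 at 2 h (0.012) with the fragments, and Fosb at 30 min (−0.13) and Jun at 1 h (0.11) with the width-weighted mean.

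Without single libraries, calls ranged from 0 to 0 at 1 h, 0 to 29 at 2 h and 0 to 0 at any time for H3K27ac, from 0 to 1, 0 to 10, 0 to 17 and 0 to 1 for Ikaros, and from 0 to 1 at 2 h and 0 to 2 at any time for CHD4. On the fragments, calls near the 10 genes ranged from 0 to 3, 0 to 4 and 0 to 7 for H3K27ac and from 0 to 2 at 1 h for Ikaros. The medians ranged from −0.19 to −0.042 at 1 h with a site, and from −0.25 to −0.080 at 1 h and 0.017 to 0.10 at 2 h without. Promoter values that changed sign ranged from −0.11 to 0.30 (Fos), −0.030 to 0.30 (Junb), −0.077 to 0.29 (Jund), −0.013 to 0.87 (Egr1), −0.027 to 0.18 (Egr2) and −0.11 to 0.35 (Ier2) at 30 min, from −0.32 to 0.56 at 1 h (Egr1), and from −0.11 to 0.70 (Fos), −0.048 to 0.16 (Egr2), −0.48 to 0.072 (Ier2) and −1.25 to 0.23 (Atf3) at 2 h. A region below a list's threshold was not shown to be unbound, and 2 libraries per time limit what could be called.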
